A study of Mus musculus with 24 samples.

Results

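Fkbp5, Tsc22d3, Sgk1 and Zbtb16, which the glucocorticoid receptor activates, the metallothioneins Mt1 and Mt2, and the receptor gene Nr3c1 were followed in liver, heart and brain of mice given Ephedra herba. The 7 genes were chosen by name, with earlier results of these data known, and each was read from its probe with the highest mean. Of the 7 genes, 6 had an annotated probe, out of 16110 genes with a probe on the arrays. Zbtb16 was not analysed here, because no probe was annotated with it. All 6 measured genes were among the 10934 genes tested, which lay above the array median on at least 4 of the 24 arrays.

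All mice were 5-week-old C57BL/6 females kept in alternating light and dark of 12 hours each. Treated mice received an oral aqueous extract of Ephedra herba, the ephedrine-containing stems of a medicinal plant, at 50 mg/kg, and tissue was taken at 1, 6, 12 and 24 hours and at 3, 5 and 10 days. The control mice were untreated, with no mention of a vehicle. There was 1 array per tissue and time (Illumina bead arrays of total RNA), so no tissue and time had a replicate. Nothing in the sources used here gives the number of mice behind an array, whether dosing was repeated, whether tissues of a time shared animals, or the clock time of sampling. Values are deposited logarithms, taken as log2, with the median probe of each array near 0.

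The glucocorticoid receptor is a nuclear receptor that chaperones hold ready in the cytosol until corticosterone, the main glucocorticoid of mice, binds it and it moves to the nucleus. It then binds DNA at paired half-sites and changes transcription, and corticosterone itself follows a daily rhythm and rises with stress. Metallothioneins are small cysteine-rich proteins that bind zinc and copper. Their genes respond to zinc through the factor MTF1, which binds metal response elements, and to glucocorticoids.

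Promoter windows of 300 bases, 250 before and 50 after an annotated gene start, were read from RefSeq (GRCm38.p6) for Mt1, Mt2, Fkbp5, Tsc22d3 and Sgk1. The neighbouring genes Mt2 and Mt1 are shown because both windows carry several metal response cores, here TGCACNC or TGCGCNC on either strand. Of 32851 windows, 25.7% held at least 1 such core, 1.97% at least 3 and 0.517% at least 4. The window of Mt2 (chr8:94172368-94172667, plus strand) had 4 cores and that of Mt1 (chr8:94178839-94179138, plus strand) had 3, in capitals in these lines.
Mt2: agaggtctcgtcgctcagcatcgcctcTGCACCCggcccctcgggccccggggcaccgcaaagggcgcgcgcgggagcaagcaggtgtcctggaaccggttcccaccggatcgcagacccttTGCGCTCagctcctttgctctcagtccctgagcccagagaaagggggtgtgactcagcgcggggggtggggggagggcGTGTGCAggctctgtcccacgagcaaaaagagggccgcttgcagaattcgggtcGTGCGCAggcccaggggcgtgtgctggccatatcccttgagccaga
Mt1: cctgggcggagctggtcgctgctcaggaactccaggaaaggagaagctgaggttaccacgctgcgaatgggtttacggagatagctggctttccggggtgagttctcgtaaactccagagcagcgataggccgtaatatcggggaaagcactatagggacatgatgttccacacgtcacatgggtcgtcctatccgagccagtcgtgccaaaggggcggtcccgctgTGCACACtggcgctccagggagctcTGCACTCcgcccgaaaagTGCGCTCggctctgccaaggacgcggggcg
Sgk1 is shown for its paired receptor half-sites, AGAACA followed after 3 bases by TGTTCT, which occurred in 3 of the 32851 windows. The Sgk1 pair lies 189 bases before 1 of the gene's 6 annotated starts (chr10:21993691-21993725, plus strand), and the capitals mark both half-sites with the bases between them.
Sgk1: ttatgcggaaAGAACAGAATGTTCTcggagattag
A single half-site on either strand was present in 19.0% of windows. It occurred in 1 of 3 Tsc22d3 windows and not in the 1 Fkbp5 window. These matches describe letters in the windows only and say nothing of binding in these mice.

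Arrays of 1 tissue differed in shape between times. The 5th percentile of all probes lay at -0.473 to -0.459 on the liver arrays of 6, 12 and 24 hours and 5 days, against -0.445 to -0.434 on those of 1 hour, 10 days and untreated mice. In heart these ranges were -0.721 to -0.714 and -0.707 to -0.697, and in brain -0.940 to -0.932 and -0.913 to -0.912. The brightest probe of the liver arrays of 6, 12 and 24 hours and 5 days stood at 9.42 to 11.2, against 7.84 to 8.29 on those of 1 hour, 10 days and untreated mice. In heart this went the other way, 8.308 to 8.66 against 8.805 to 9.454. In brain the ranges overlapped, 8.462 to 9.057 and 8.127 to 8.5. These ranges leave out the 3 day arrays, whose 5th percentile was -0.447 in liver, -0.714 in heart and -0.930 in brain. The heart value lay within the range of 6, 12 and 24 hours and 5 days. This grouping of times was seen in the values, and the labels name no batch. For these 4 times the shape of the array and the time since dosing are confounded and cannot be told apart. The expected tissue markers were present: the mean of 6 hepatocyte genes was 4.91 to 6.48 in liver, that of 5 heart muscle genes 8.13 to 9.39 in heart, and that of 6 neuron and glia genes 4.53 to 4.81 in brain, where 1 of them, Nefl, lay below the median on all 8 arrays. Markers of another tissue also stood high on some arrays. Heart muscle genes averaged 1.54 on the untreated brain array, 0.61 at 5 days and 1.29 at 10 days. The other brain arrays stood at -0.36 to -0.19. On the liver arrays of 1 and 24 hours these genes averaged 1.53 and 0.85, against -0.28 to -0.05 on the others. Hepatocyte genes in heart averaged 1.32 untreated, 1.79 at 1 hour and 1.04 at 6 hours, against -0.27 to 0.54 later. Their part in the results was not tested. In whole tissue, fewer cells of a type and less RNA per cell cannot be told apart.

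**Figure D1:**
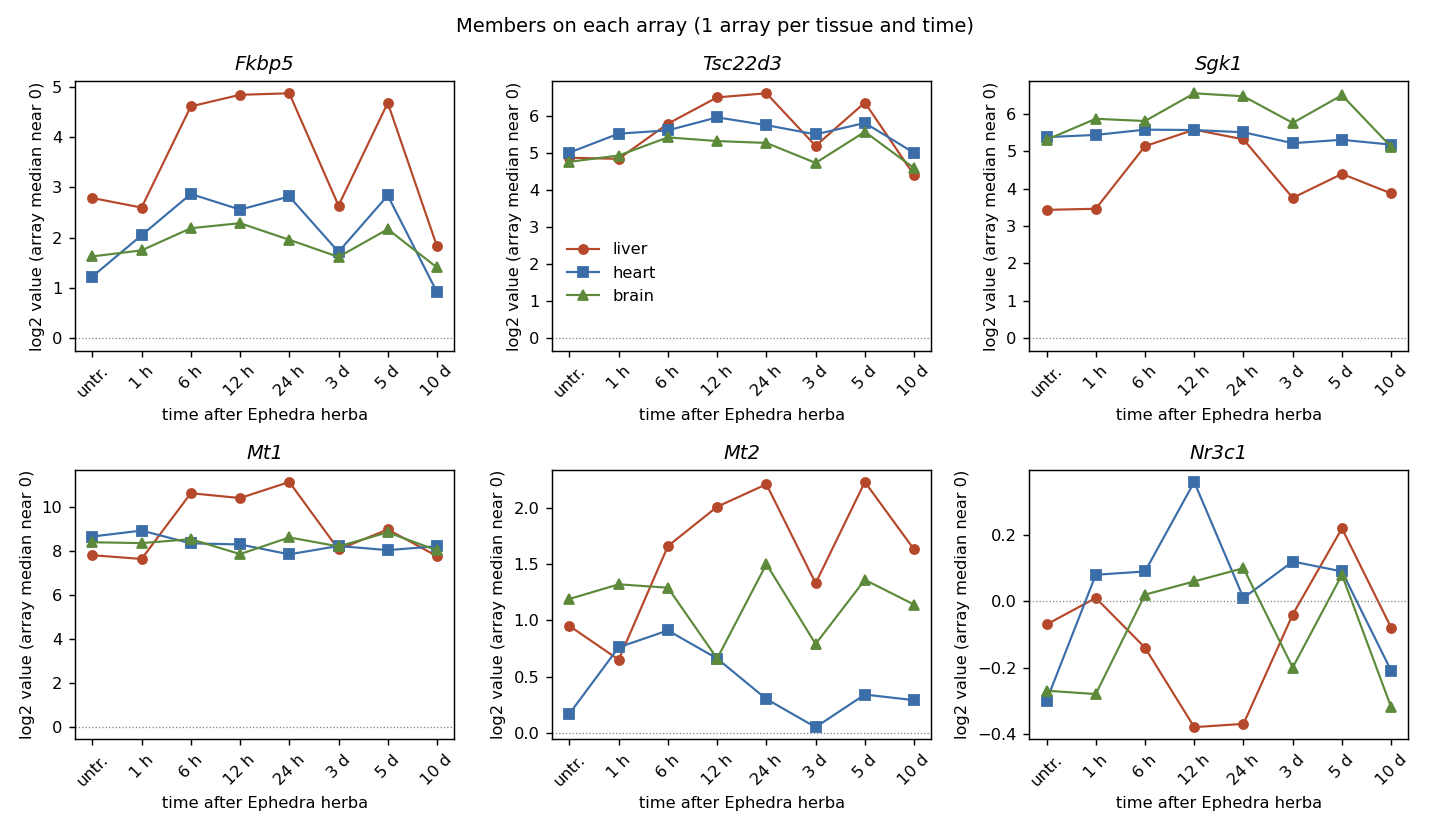
Log2 value of the 6 measured genes (vertical axis, array median near 0) at each time (horizontal axis, untr. is untreated), 1 point per array for liver (circles), heart (squares) and brain (triangles). Fkbp5 and Tsc22d3 stood higher at 6, 12 and 24 hours and 5 days than at the other times in each tissue, and on this deposited scale Mt1 was highest on the liver arrays of 6, 12 and 24 hours. The vertical scales differ between panels.

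Nr3c1, the receptor itself, had a weak signal close to the array median. In liver its values were -0.07 untreated, then 0.01, -0.14, -0.38, -0.37, -0.04, 0.22 and -0.08 from 1 hour to 10 days. The heart values were -0.30 untreated and 0.08, 0.09, 0.36, 0.01, 0.12, 0.09 and -0.21 at the 7 later times. Brain gave -0.27 untreated, with -0.28, 0.02, 0.06, 0.10, -0.20, 0.08 and -0.32 after dosing. The probe exceeded the array median on 12 of 24 arrays, 2 in liver, 6 in heart and 4 in brain, so much of this range lies where signal and background are not separated. No difference of Nr3c1 from untreated passed the test at any time, and the estimates ran between 0.01 at 10 days and 0.34 at 5 days (SE 0.16, limma adjusted p = 1.0 and 0.27). Without liver the 12 hour difference was 0.49 (limma adjusted p = 0.026, with alternatives up to 0.989).

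Fkbp5 encodes a co-chaperone that lowers the receptor's affinity for hormone and is itself induced by the receptor. Its liver values were 2.79 untreated, then 2.60, 4.61, 4.84, 4.87, 2.64, 4.68 and 1.83 at 1, 6, 12 and 24 hours and 3, 5 and 10 days. Heart gave 1.23 untreated, with 2.05, 2.87, 2.56, 2.82, 1.72, 2.84 and 0.92 over the same times. In brain the untreated value was 1.63, and the treated ones were 1.75, 2.19, 2.29, 1.96, 1.62, 2.17 and 1.41. In all 3 tissues the arrays of 6, 12 and 24 hours and 5 days lay above the other 4, and the 10 day array was the lowest of its tissue. Against the untreated liver array Fkbp5 was 3.54-fold higher at 6 hours, 4.14-fold at 12 hours, 4.23-fold at 24 hours and 3.72-fold at 5 days, on 1 array each. These are log2 differences of 1.82, 2.05, 2.08 and 1.89 as deposited, and of 1.07, 1.33, 1.23 and 1.70 after quantile normalization over all arrays. The untreated heart array stood apart in markers of other cell types: 5 fat cell genes averaged 3.12 on it, against 0.11 to 1.03 on the other heart arrays, and 5 neutrophil genes 0.91, against -0.25 to 0.22. Fkbp5 in heart differed from it by 1.65, 1.34, 1.59 and 1.62 at 6, 12 and 24 hours and 5 days. Against the mean of the 1 hour and 10 day heart arrays instead, these differences were 1.39, 1.08, 1.33 and 1.36.

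Tsc22d3 encodes GILZ, a leucine zipper protein that carries part of the anti-inflammatory action of glucocorticoids. Its brighter probe read 4.88 in untreated liver and 4.85, 5.80, 6.51, 6.62, 5.20, 6.37 and 4.41 from 1 hour to 10 days. Heart values were 5.02 untreated and 5.53, 5.62, 5.97, 5.76, 5.51, 5.82 and 5.01 after dosing. Brain started at 4.77 untreated and read 4.94, 5.43, 5.33, 5.28, 4.74, 5.58 and 4.60. As with Fkbp5, the arrays of 6, 12 and 24 hours and 5 days lay above the other 4 in each tissue.

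A second Tsc22d3 probe, annotated to another transcript accession, was dimmer. In liver it read 0.81 untreated and 1.74, 3.04, 4.01, 3.25, 1.64, 2.03 and 1.25 at the later times. Its log2 difference from untreated liver was 2.23 at 6 hours, 3.20 at 12 hours and 2.44 at 24 hours, against 0.92, 1.63 and 1.75 for the brighter probe. At 5 days the order was the other way, at 1.22 for the second probe and 1.5 for the brighter one. In heart the second probe differed by 0.60, 1.06, 0.51 and 0.76 at 6, 12 and 24 hours and 5 days, beside 0.60, 0.95, 0.74 and 0.80 for the brighter one. In brain these differences were 1.27, 1.05, 1.34 and 1.54 for the second probe and 0.66, 0.55, 0.51 and 0.81 for the brighter one. The brighter probe's liver difference depends on scaling: with quantile normalization over all arrays it was -0.14 at 6 hours, 0.51 at 12 hours and 0.40 at 24 hours.

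**Figure D2:**
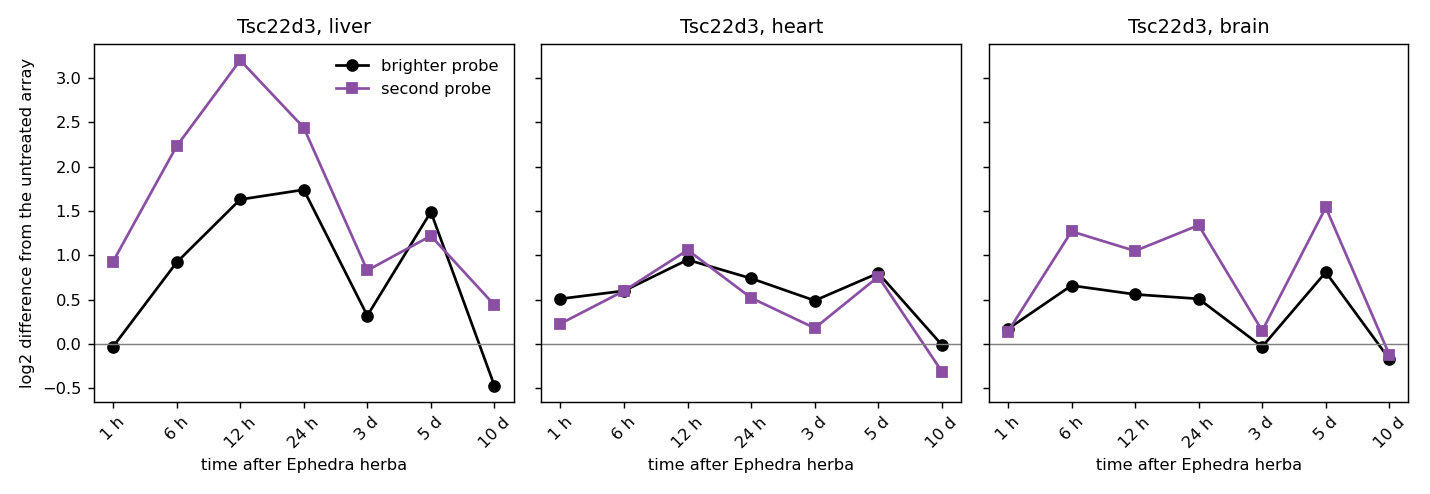
Log2 difference of each treated array from the untreated array of its tissue (vertical axis) by time (horizontal axis) for the 2 Tsc22d3 probes, in liver, heart and brain. The second probe (squares) reached 3.20 in liver at 12 hours, where the brighter probe (circles) reached 1.63.

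Sgk1 encodes a kinase that the receptor and the mineralocorticoid receptor induce and that raises the activity of epithelial sodium channels. Liver values were 3.43 untreated and 3.46, 5.13, 5.57, 5.31, 3.75, 4.39 and 3.87 over the 7 times. Heart values spanned a narrow range, at 5.37 untreated and 5.43, 5.57, 5.56, 5.50, 5.21, 5.30 and 5.17. In brain, Sgk1 read 5.30 untreated and 5.86, 5.80, 6.54, 6.46, 5.75, 6.49 and 5.11. The liver arrays of 6, 12 and 24 hours and 5 days all lay above the other 4, whereas in heart and brain the sets overlapped. Sgk1 in liver differed from untreated by 1.70, 2.14 and 1.88 at 6, 12 and 24 hours as deposited (4.40-fold at 12 hours), and by 0.83, 1.25 and 0.92 after quantile normalization over all arrays. The heart difference at 6 hours was 0.20 as deposited and 0.72 with quantile normalization over all arrays, beside a median of -0.17 over all tested genes on that heart array as deposited.

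As deposited, Mt1, one of the brightest genes on the arrays, stood higher on 4 liver arrays (6, 12 and 24 hours and 5 days) than on any heart or brain array. In liver it read 7.82 untreated, then 7.65, 10.64, 10.42, 11.15, 8.08, 8.99 and 7.78. Heart values were 8.67 untreated and 8.94, 8.36, 8.31, 7.86, 8.24, 8.05 and 8.23. Brain values were 8.41 untreated and 8.37, 8.55, 7.87, 8.63, 8.22, 8.86 and 8.04. The 24 hour liver array exceeded the untreated one 10.1-fold, while in heart the 24 hour array had the lowest deposited value of the 8.

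The size of this liver difference depended on the scaling. The Mt1 difference from untreated liver was 2.82, 2.61 and 3.33 at 6, 12 and 24 hours as deposited, and 0.71, 0.73 and 0.73 after quantile normalization over all arrays. Within-tissue quantile normalization gave 0.66, 0.67 and 0.67. By rank among 25697 probes, counted from the brightest, Mt1 stood at 55 in untreated liver and at 51, 7, 5, 6, 19, 25 and 24 at the later times. Its place was thus highest at 6, 12 and 24 hours, an order that rescaling an array without reordering its probes leaves as it is. In heart the sign turned with the scaling: Mt1 differed from untreated by -0.31, -0.36 and -0.81 at 6, 12 and 24 hours as deposited, and by 0.82, 0.45 and 0.21 after quantile normalization over all arrays. Its heart ranks were 68 untreated and 46, 12, 37, 53, 63, 49 and 82 from 1 hour to 10 days. The brain ranks were 12 untreated and 10, 6, 13, 7, 11, 5 and 11. By rank, then, Mt1 stood lower on the 5 day liver array, at 25, than on every brain array.

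**Figure D3:**
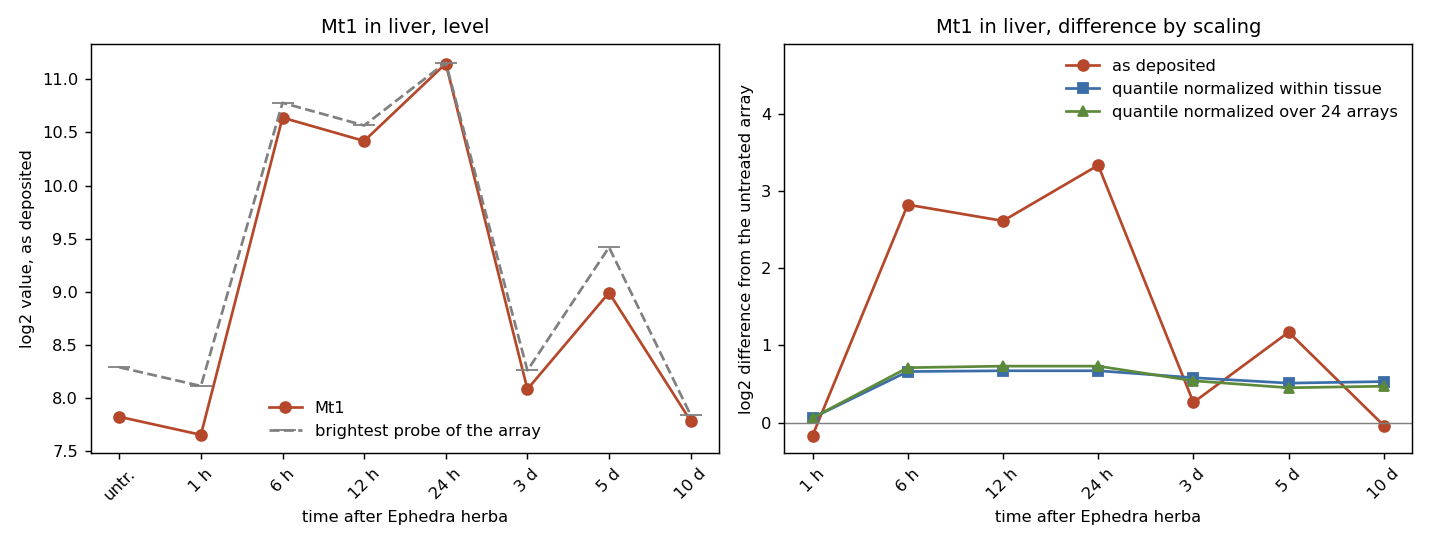
Left, deposited log2 value of Mt1 (circles) and of the brightest probe (bars on the dashed line) on each liver array. Right, log2 difference of Mt1 from the untreated liver array by time, as deposited (circles) and after quantile normalization within tissue (squares) or over all 24 arrays (triangles). The deposited difference reaches 3.33 at 24 hours and the quantile-normalized ones 0.67 and 0.73.

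Mt2, the neighbour of Mt1, had a much weaker signal from its probe. Its liver values were 0.95 untreated and 0.65, 1.66, 2.01, 2.21, 1.33, 2.23 and 1.63 from 1 hour to 10 days. Heart gave 0.17 untreated and 0.76, 0.91, 0.66, 0.30, 0.05, 0.34 and 0.29, and brain gave 1.19 untreated and 1.32, 1.29, 0.66, 1.5, 0.79, 1.36 and 1.14. In liver the arrays of 6, 12 and 24 hours and 5 days lay above the other 4, by a narrow margin at 6 hours (1.66, against 1.63 at 10 days). The liver differences of Mt2 kept their size under quantile normalization over all arrays, at 0.97 against 1.05 as deposited for 12 hours and 1.11 against 1.26 for 24 hours.

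Single arrays were compared with the untreated array of the same tissue at a threshold of 2-fold. As deposited, of 42 gene and time combinations in each tissue, 17 were at least 2-fold higher in liver, 4 in heart and 3 in brain, and none was 2-fold lower. In liver these were Fkbp5, Sgk1 and Mt1 at 6 hours (3 of 6 genes, background 12.2% of all tested genes), 5 of 6 genes at 12 hours (8.68%) and 24 hours (11.8%), all but Nr3c1, and Fkbp5, Tsc22d3, Mt1 and Mt2 at 5 days (4 of 6, 1.39%). No liver member passed at 1 hour (0.54%), 3 days (0.732%) or 10 days (0.0915%). In heart Fkbp5 alone passed at 6, 12 and 24 hours and 5 days (1.44%, 1.42%, 1.08% and 1.22% of all genes), and none did at 1 hour, 3 days or 10 days (0.311%, 0.997% and 0.0274%). In brain Sgk1 alone passed at 12 and 24 hours and 5 days (2.94%, 2.11% and 2.56%), and none at 1 hour, 6 hours, 3 days or 10 days (0.0274%, 1.25%, 0.741% and 0.128%). The split between tissues changed with quantile normalization over all arrays, and the share of all genes passing then is not given here. Mt1 in liver then passed at no time (log2 0.71, 0.73, 0.73 and 0.45 at 6, 12 and 24 hours and 5 days), and Sgk1 in liver at 12 hours only (1.25). Tsc22d3 in liver no longer passed at 12 and 24 hours (0.51 and 0.40), nor did Mt2 there at 12 hours (0.97). Tsc22d3 passed in heart at 6, 12 and 24 hours and 5 days (1.17, 1.49, 1.41 and 1.36), and in brain at 12 hours (1.12). Liver then no longer exceeded heart in the number of passes.

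The arrays of 6, 12 and 24 hours and 5 days all lay above the other 4 for Fkbp5, Tsc22d3, Sgk1, Mt1 and Mt2 in liver (5 of 6, against 16.7% of all tested genes), for Fkbp5 and Tsc22d3 in heart (2 of 6, 6.8%) and for Fkbp5, Tsc22d3 and Nr3c1 in brain (3 of 6, 10.5%). In all 3 tissues together this held for Fkbp5 and Tsc22d3, and for 0.348% of all genes. After quantile normalization over all arrays it held in liver for Fkbp5 and Sgk1 only (9.27% of all genes), in heart also for Sgk1 (13.5%) and in brain for the same 3 members (13.6%). In all 3 tissues together it then held for Fkbp5 and no longer for Tsc22d3, and for 0.823% of all genes. The grouping was itself seen in these data and carries no test.

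Whether the members changed at a time in common over tissues was tested with limma, with the 3 tissues as replicates of a time (3 arrays against 3) and tissue as a block. Nothing says that arrays came from separate animals, so p-values reflect only the spread among these arrays, and each comparison shares the 3 untreated arrays. Fkbp5 rose at 12 hours, by 1.35 (SE 0.38, adjusted p = 0.0493), with a mean of 3.23 against 1.88 untreated. Tsc22d3 rose at 12 hours by 1.04 (SE 0.26, adjusted p = 0.0295), at 24 hours by 1.00 (adjusted p = 0.0494) and at 5 days by 1.04 (adjusted p = 0.0495), and Sgk1 rose at 12 hours by 1.19 (SE 0.34, adjusted p = 0.0496). Each of these differences was positive in 3 of 3 tissues. Fkbp5 differed by similar amounts at 6 hours (1.34), 24 hours (1.33) and 5 days (1.35) without passing, at adjusted p = 0.0621, 0.0735 and 0.0736.

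Thus 3 of 6 genes passed at 12 hours, where 1.32% of all tested genes rose, and 1 of 6 at 24 hours (0.777%) and at 5 days (0.723%). Because the members were chosen with earlier results of these data known, these shares are description and not a test. No member passed at 6 hours (1.08%), where 3 of 6 had an unadjusted p below 0.05, as did 2043 of all 10934 tested genes. None passed at 1 hour (0%), 3 days (0.238%) or 10 days (0%), with 0 of 6 at an unadjusted p below 0.05 and 95, 1375 and 126 genes in all. For any difference over the 7 times, Fkbp5 and Tsc22d3 passed (limma F test, adjusted p = 0.0144 and 0.0183; 4.31% of all genes), and Sgk1 did not (adjusted p = 0.114). The metallothioneins had estimates of 0.88 and 0.91 for Mt1 at 6 and 24 hours (SE 0.68, limma adjusted p = 0.526 and 0.532) and of 0.52 and 0.57 for Mt2 (SE 0.31, limma adjusted p = 0.396 and 0.363).

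These calls stood close to the threshold. Without brain or without heart no member passed at any time, and the share of all genes passing in these fits is not given here. The Fkbp5 estimate at 12 hours was 1.69 without brain and 1.36 without heart, beside 1.35 with all tissues. Without liver 9 calls were made, Fkbp5 and Tsc22d3 each at 6, 12 and 24 hours and 5 days and Nr3c1 at 12 hours. More of all tested genes rose then too, 3.63%, 5.58%, 4.03% and 4.24% at those times. With quantile normalization over all arrays there were 10 calls, with Fkbp5 at 4 times, Sgk1 at 3 and Tsc22d3 at 3. The share of all genes that rose was then 1.98%, 3.48%, 1.57% and 1.31% at 6, 12 and 24 hours and 5 days.

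**Figure D4:**
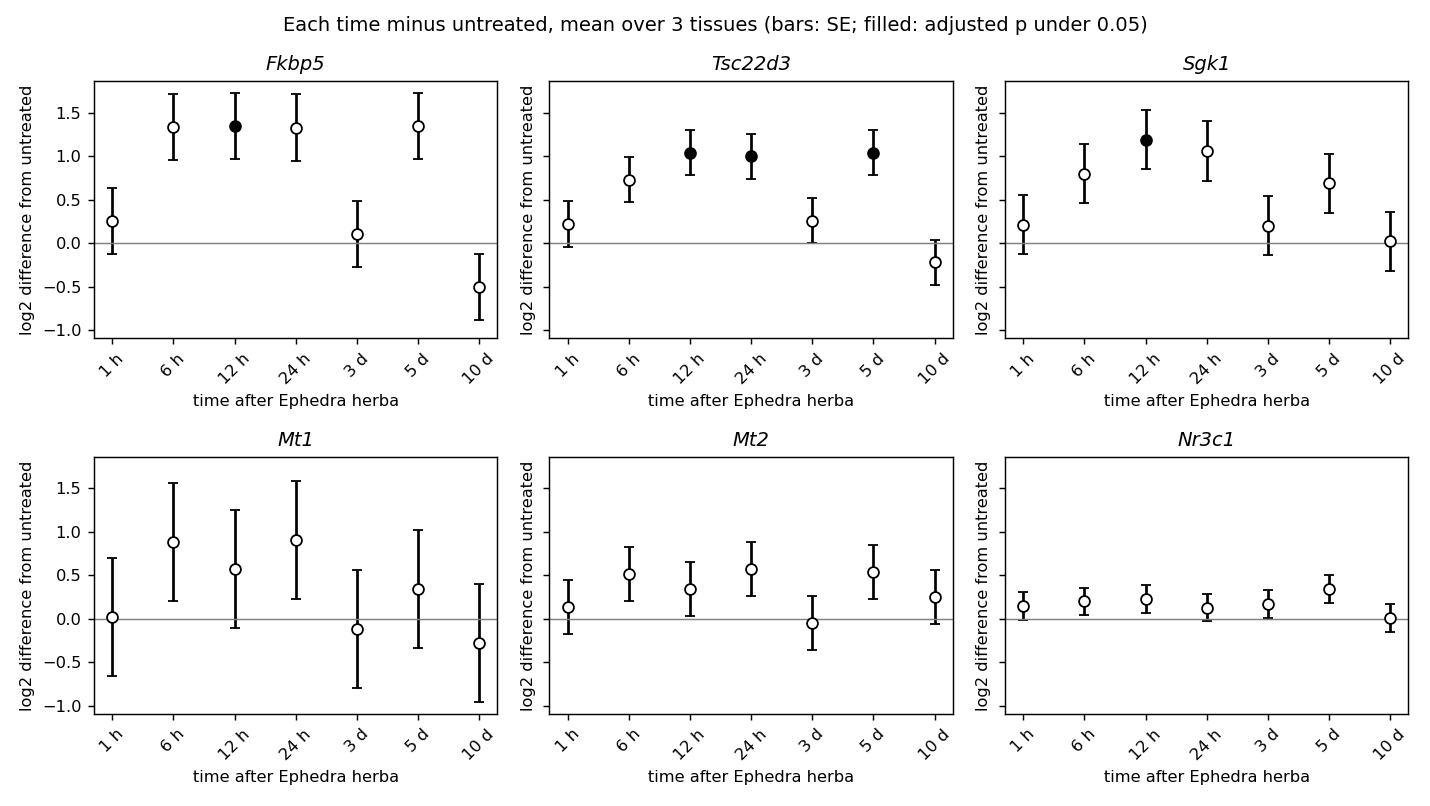
Log2 difference from untreated (vertical axis) by time (horizontal axis), as the limma mean over 3 tissues with its SE, for the 6 measured genes. Filled points have an adjusted p under 0.05: Fkbp5 and Sgk1 at 12 hours, and Tsc22d3 at 12 and 24 hours and 5 days.

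Comparisons within each set of like-shaped arrays gave no call for a member, and the share of all genes called in these fits is not given here. Between the arrays of 1 hour and 10 days and the untreated ones, the mean log2 difference over tissues was -0.12 for Fkbp5, 0.00 for Tsc22d3, 0.11 for Sgk1, -0.13 for Mt1, 0.19 for Mt2 and 0.08 for Nr3c1, and none passed with limma (adjusted p = 0.825 to 1.0). Between 6 and 12 hours and the pair of 24 hours and 5 days, the differences were 0.01 for Fkbp5, -0.13 for Tsc22d3, 0.12 for Sgk1, 0.10 for Mt1, -0.13 for Mt2 and -0.02 for Nr3c1, again with none called (limma adjusted p = 0.979 to 0.999). The sets were seen in these same values, so array shape and time cannot be told apart here either. A mean over 1 hour and 10 days can also cover opposite values, as for Fkbp5 in heart (0.83 and -0.31 against untreated). In liver alone the estimates ran from -0.58 for Fkbp5 to 0.24 for Sgk1 in the first of these comparisons, and from -0.39 for Mt2 to 0.50 for Sgk1 in the other.

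All treated times were also compared with untreated mice, as a lasting difference. No member passed over tissues (21 arrays against 3; Fkbp5 0.75 ± 0.49, Tsc22d3 0.58 ± 0.32, Sgk1 0.59 ± 0.33, Mt1 0.33 ± 0.51, Mt2 0.33 ± 0.24 and Nr3c1 0.18 ± 0.12, each with its SE). By limma 0% of all genes passed over tissues, although 1215 had an unadjusted p below 0.05, with none of the 6 members among them. In liver, heart and brain taken alone no member passed either, and 0%, 0.11% and 0% of all genes did (224, 612 and 427 genes at an unadjusted p below 0.05, and 0 members). The difference between tissues passed for no member, and for 0.0274% of genes. In 1 tissue the lone untreated array is assumed to vary like the treated ones.

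The arrays of 6 and 12 hours were set against those of whole days (24 hours, 3, 5 and 10 days), a comparison without the untreated arrays. No member passed with limma over tissues (0% of all genes), in liver (1.58%), in heart (0%), in brain (0%) or in the difference between tissues (0%). At an unadjusted p below 0.05 there were 1 member over tissues and 2 in liver, and 1046 and 2646 genes in all. In heart, brain and the difference between tissues there were 0 members, and 374, 433 and 1149 genes. The largest estimates were in liver, 1.53 ± 0.61 for Mt1, 1.22 ± 0.69 for Fkbp5 and 1.02 ± 0.40 for Sgk1 (SE, limma adjusted p = 0.15, 0.285 and 0.149). The call depended on the 24 hour arrays. Without them Mt1 differed in liver by 2.25 (limma adjusted p = 1.7e-04, the lowest of its alternatives, which reached 0.79) and Sgk1 by 1.35 (adjusted p = 0.00701, alternatives up to 0.646). Over tissues, Mt1 then differed by 0.75 (limma adjusted p = 0.028, alternatives up to 0.994) and Sgk1 by 0.69 (adjusted p = 0.0431, alternatives up to 0.979). The difference between tissues also passed for Mt1 without these arrays (limma F test, adjusted p = 0.00416, alternatives up to 1.0). Of all tested genes, 29.7% were then called in liver, 7.01% over tissues and 16.2% for the difference between tissues.

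Tissue levels were compared with time as a block (8 arrays each, limma). Fkbp5 averaged 3.61 ± 1.26 in liver, 2.13 ± 0.77 in heart and 1.88 ± 0.32 in brain (SD, n = 8), so that liver exceeded heart by 1.48 (adjusted p = 2.1e-05) and brain by 1.73 (adjusted p = 2.3e-06). Sgk1 ran the other way, at 4.36 ± 0.87 in liver, 5.39 ± 0.15 in heart and 5.91 ± 0.55 in brain. Liver minus brain was -1.55 (adjusted p = 2.0e-06), liver minus heart -1.03 (adjusted p = 2.8e-04) and heart minus brain -0.52 (adjusted p = 0.0316) for Sgk1. The last of these did not pass without the arrays of 12 hours, 24 hours, 3 days or 5 days (limma adjusted p = 0.0558 to 0.103).

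Tsc22d3 was more even over tissues, at 5.58 ± 0.86 in liver, 5.53 ± 0.35 in heart and 5.08 ± 0.37 in brain (SD, n = 8). Liver and heart exceeded brain by 0.50 and 0.45 (limma adjusted p = 0.00944 and 0.019), while liver and heart did not differ beyond their spread (0.05, adjusted p = 0.799). The heart and brain difference was not called without the 3 day arrays (0.40, limma adjusted p = 0.0573). Nor was it called with the mean of the probes of a gene (0.36, limma adjusted p = 0.057) or a variance trend with robust eBayes (0.45, adjusted p = 0.052). The liver and brain difference was not called after quantile normalization over all arrays (0.26, limma adjusted p = 0.0792). Mt2 averaged 1.58 ± 0.58 in liver, 0.44 ± 0.30 in heart and 1.16 ± 0.29 in brain. Liver exceeded heart by 1.15 (adjusted p = 3.3e-05) and brain by 0.43 (adjusted p = 0.0479), and heart minus brain was -0.72 (adjusted p = 0.00242). The liver and brain difference of Mt2 was not called without the arrays of any one of 6, 12 or 24 hours, 3, 5 or 10 days (adjusted p = 0.0703 to 0.166).

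Mt1 averaged 9.07 ± 1.46 in liver, 8.33 ± 0.34 in heart and 8.37 ± 0.32 in brain, and Nr3c1 -0.11 ± 0.20, 0.03 ± 0.21 and -0.10 ± 0.18, with no pair called as deposited. For Mt1 these contrasts depended on the scaling. After quantile normalization over all arrays, heart minus brain was -0.61 (limma adjusted p = 2.2e-05) and liver minus heart 0.39 (adjusted p = 0.00244). Within-tissue quantile normalization gave 0.68 for liver minus brain and 0.71 for liver minus heart (limma adjusted p = 2.7e-06 and 2.0e-06), and -0.03 for heart minus brain (adjusted p = 0.778). Quantile normalization over all arrays turned the sign of the Mt1 difference between liver and brain, which was 0.70 as deposited and -0.22 after it. In all, 10 of 18 tissue contrasts of the members passed, beside 65.3% of all genes for liver and heart, 76.2% for liver and brain and 71.4% for heart and brain.

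Over the 24 arrays, with tissue means taken out, Fkbp5 and Tsc22d3 had a Pearson correlation of 0.929. These points share arrays, array shape and times, so the correlations are descriptions. Sgk1 correlated with Tsc22d3 at 0.80 and with Fkbp5 at 0.749, Mt1 with Mt2 at 0.656, and Nr3c1 with Fkbp5 at 0.147. The tested genes with the pattern most like Fkbp5 were Tsc22d3, Per2 (0.917), a repressor of the circadian clock, and Ciart (0.909), another clock repressor. For Tsc22d3 they were Ciart (0.93), Fkbp5 and Tcim (0.893), and for Sgk1 Zfp385b (0.902), Pxylp1 (0.899) and Triobp (0.893). Mt1 was most like Serpinf1 (0.975), Hibadh (0.973) and Fth1 (0.972), the ferritin heavy chain. Mt2 was most like Wfdc2 (0.794), Ddit4 (0.783) and Cuta (0.778), and Nr3c1 like Osbpl11 (0.838), Elavl1 (0.838) and Fancl (0.836).

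Other genes of the pathway were counted by list in the tests of each time. Of all 10934 tested genes, 0% to 1.32% rose at a single time by limma, and 0 to 443 genes fell. Those with an unadjusted p below 0.05 numbered 95 to 2308 at a single time. How many of all genes had one at some time is not given here, so the list counts at some time have no background. Of 25 other glucocorticoid-responsive genes, 24 were on the array and 21 tested. By limma 0 rose at any time, 7 had an unadjusted p below 0.05 at some time, and only Pdk2, a kinase that restrains pyruvate dehydrogenase, fell, at 6 hours by 0.84 (SE 0.22, limma adjusted p = 0.0468). The median log2 difference of the list was 0.12, 0.11 and 0.22 at 6, 12 and 24 hours, beside -0.04, -0.07 and -0.04 over all tested genes. The largest mean differences were those of Lcn2, an iron-siderophore binding protein, Sult1a1, a sulfotransferase, Bcl6, a transcriptional repressor, and Dusp1, a phosphatase of MAP kinases, with none called. Lcn2 in liver read 6.69, 7.13 and 7.11 at 6, 12 and 24 hours, against 2.47 untreated.

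Among 12 receptor chaperones and co-chaperones, of which 11 were tested, Ptges3 (p23, which stabilises the receptor with HSP90) rose at 6, 12 and 24 hours and 5 days. Its differences were 0.83, 0.95, 1.06 and 1.25 (SE 0.22, limma adjusted p = 0.0461, 0.0215, 0.0184 and 0.0131). At 3 days the difference was of like size, 0.97, without passing (limma adjusted p = 0.0663). In heart Ptges3 read 1.58 at 6 hours, against 0.24 untreated, but in liver 0.94 against 1.03. Its liver value was highest at 3 days (1.76). Of 7 tested receptor coregulators, Smarca4, the ATPase of a chromatin remodelling complex, fell at 6 hours by 0.71 (SE 0.17, limma adjusted p = 0.0279). By limma 0 of 4 tested genes of steroid metabolism and 0 of 8 tested relatives of Sgk1, Tsc22d3 and Fkbp5 passed at any time. At an unadjusted p below 0.05 at some time there were 1 and 3 such genes.

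Of 11 tested genes of metal handling, the zinc exporter Slc30a1, a target of MTF1, rose at 6 hours by 0.63 (SE 0.16, limma adjusted p = 0.039). Slc30a10, a manganese exporter, fell at 5 days by 0.93 (SE 0.23, limma adjusted p = 0.05 after rounding). Mt3, the brain metallothionein, had estimates of -0.89, -1.05 and -0.74 at 6, 12 and 24 hours without passing (SE 0.36, limma adjusted p = 0.0996 at 12 hours). In brain it read 4.42, 3.75 and 4.46 at those times, against 5.95 untreated.

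Several marker lists differed between the same arrays as the members did, and their part in the results was not tested. The mean of 9 clock genes that peak with Dbp was 3.19 to 3.94 on the liver arrays of 6, 12 and 24 hours and 5 days, against 0.90 to 2.43 on the other 4. In heart these means were 3.17 to 3.29 and 1.79 to 3.06, and in brain 3.06 to 3.18 and 2.74 to 2.91. The mean of 4 of 5 red cell genes was 3.38 to 3.62 in liver against 2.61 to 2.85, whereas in heart and brain the ranges overlapped. Hepatocyte genes in liver read 5.34 to 6.48 against 4.91 to 5.36, and heart muscle genes in heart 8.13 to 8.52 against 8.77 to 9.39. Endothelial genes in heart, 5 of 6 on the array, read 2.73 to 2.81 against 3.01 to 3.47, and in brain 0.84 to 0.97 against 1.03 to 1.42. The mean of 4 of 6 macrophage genes in brain was 0.43 to 0.79 against 0.85 to 1.18, and that of 5 neutrophil genes in liver -0.23 to -0.09 against -0.02 to 0.38. Adrenal and pituitary genes in liver stayed at -0.37 to -0.23 against -0.29 to -0.25, with Star and Cyp11b1 below the median on all 8 arrays. In brain this list split the arrays otherwise. Its mean was 0.82, 0.74 and 0.69 at 1 hour, 12 hours and 3 days, against -0.62 to -0.13 on the other brain arrays.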

How the data were processed

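Expression was measured in 24 samples on Illumina bead arrays from biotinylated cRNA, per the labels' protocols. The authors deposited a table of log2 values for 25697 probes; the base is not stated and was taken as 2, and the authors' background correction, software and normalization were not stated in the sources used here. A deposited table of non-normalized values was not used, since its 24 value columns match no sample label. Detection p-values were therefore not used, and the number of arrays limits the precision.

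Symbols came from the platform annotation: 23141 probes had 1 symbol and 2556 had none. Each gene was read from its highest-mean probe (4507 genes had over 1). Genes above the array median on at least 4 arrays were fitted by lmFit and eBayes of limma 3.58.1 (R 4.3.3; two-sided, Benjamini-Hochberg over 10934 genes, call at an adjusted p under 0.05), checked first on simulated data. Samples were grouped by labelled tissue and time, with tissue or time as a block. The members and gene lists were chosen with earlier results of these data known. All members were named, up to 4 genes of each related list by their mean difference at 6, 12 and 24 hours, and the 3 genes most correlated with each member. Pdk2, the remaining called gene of these lists, was named after its values were seen. Alternatives were other scalings, filters, probe rules, variance priors, leaving out a tissue or time, and fits within array sets. Promoter windows came from RefSeq (GRCm38.p6), and sequences of Nr3c1 were not used here.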

Additional observations from a re-analysis of the deposited data

Results flagged for a closer look

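No value of the members met the criteria for a closer look. Each gene's 8 arrays of a tissue were searched for a single distant array (18 sets, gap over range above 0.526), and 0 were found. The 12 tests of a difference between tissues gave 0 calls by limma, and 0 at an unadjusted p below 0.05. Under the alternatives 1 of 178 such tests was called, Mt1 for 6 and 12 hours against whole days without the 24 hour arrays (limma adjusted p = 0.00416).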

How the results depend on the processing

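For each time against untreated, 5 calls were made over the members as reported. There were 10 with quantile normalization over all arrays and 10 within tissues, 1 with arrays shifted to a median of 0, 1 without the detection filter, 2 with a variance trend and robust eBayes, 0 with only the arrays of that time and untreated, and 0 to 9 on leaving out a tissue or a time (1 without 6 hours, 3 days or 5 days, 2 without 12 hours or 10 days, 3 without 24 hours). Over 17 alternatives Tsc22d3 at 12 hours was called in 13 (limma adjusted p = 0.00631 to 0.673), Fkbp5 at 12 hours in 9 (0.0105 to 0.673), Tsc22d3 at 5 days in 8 (0.00979 to 0.645) and at 24 hours in 6 (0.0238 to 0.641), and Sgk1 at 12 hours in 5 (0.0025 to 0.673). For these comparisons of times, the share of all genes that rose is given above only with quantile normalization over all arrays and without liver. Counts of members from alternatives with no share above have no such background. Treated against untreated stayed at 0 calls throughout. The comparison of 6 and 12 hours with whole days gave 0 to 4 on leaving out a tissue or time, with 4 without the 24 hour arrays and 0 otherwise, beside 1 call (Mt1) for the difference between tissues, also without the 24 hour arrays. Tissue contrasts gave 10 calls as reported, 3 to 11 on leaving out a tissue or time (6 tests remain without a tissue) and 9 to 12 otherwise. The count of single arrays at least 2-fold higher was 24 as reported and 20 to 23 under the alternatives. Its split between tissues was less stable. With quantile normalization over all arrays Mt1 in liver dropped out, as did Sgk1 and Tsc22d3 in liver at some times. Tsc22d3 in heart came in. No called value changed direction, while 78 of 1794 member tests under alternatives changed sign with neither value called. Where not given by fewer arrays or genes in an alternative, the cause was not tested. No paired analysis was possible because the labels carry no replicate numbers, and tissue is already the block. Signal near the array median limits Nr3c1 and, in heart, Mt2.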
